A study of Mus musculus with 24 samples.

Results

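The Ccl5 to Ccl4 chemokine cluster is a stretch of mouse chromosome 11 that holds the genes Ccl5, Ccl9, Ccl6, Ccl3 and Ccl4. Its members were chosen by position, as every called peak of the 24 peak lists that overlaps chr11:83300001-83500000 on the mm9 build, and they number 244 of 756484 peaks in all. The data are chromatin immunoprecipitation sequencing (ChIP-seq) peak lists from primary bone marrow-derived macrophages of FVB/Hsd mice on day 7 of differentiation, all infected with a retrovirus and selected with puromycin. A single hairpin directed at Wdr82 (shWdr82) was compared with a control vector, without stimulation or with 10 ng/ml of the bacterial endotoxin lipopolysaccharide (LPS). The empty LMP vector was the control for H3K4me3 and H3K27ac, with LPS for 4 h by their titles. A scrambled hairpin was the control for H3K4me1, for H3K36me3, for RNA polymerase II (total Pol II) and for its form phosphorylated at serine 2 of the tail (Ser2P). Their titles say 45 min of LPS, whereas the design text speaks of 4 h. Each of the 24 groups, 6 antibodies by 2 vectors by 2 treatments, is 1 library, so no difference has a replicate check, and values are described without a statistical test. Neither the knockdown of Wdr82 nor the macrophage identity can be read from these lists without gene positions on mm9, and neither was checked here.

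The 5 genes encode CC chemokines, small secreted proteins that draw leukocytes to sites of inflammation through G protein-coupled receptors. Ccl3 (MIP-1 alpha), Ccl4 (MIP-1 beta) and Ccl5 (RANTES) are classical LPS-induced genes of macrophages, while Ccl9 (MIP-1 gamma) and Ccl6 (C10) are CCR1 ligands found in mouse myeloid cells already at rest. H3K4me3 marks active promoters, H3K4me1 and H3K27ac mark enhancers and active regulatory DNA, and H3K36me3 and Ser2P Pol II accompany elongation through transcribed units. WDR82 is a subunit of SET1 methyltransferase complexes, which place H3K4me3, and of a PNUTS phosphatase complex that acts in transcription termination. The series title concerns early termination of transcription at regulatory elements, so the comparisons here are of marks and polymerase with and without the Wdr82 hairpin, at rest and with LPS.

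Each gene was followed in a window reaching 7.5 kb to each side of its mm9 position as the member rule gives it: chr11:83331501-83351500 for Ccl5 (20 kb), chr11:83378501-83393500 for Ccl9, chr11:83393501-83408500 for Ccl6, chr11:83453501-83468500 for Ccl3 and chr11:83468501-83483500 for Ccl4 (15 kb each). The windows do not overlap and make up 80 kb of the 200 kb. The value given is the length covered by peaks, clipped to the window. A log2 ratio of 2 covered lengths has 1000 bp added to each length, and is called higher or lower when it is at least 2-fold. As a scale, the same ratio was taken over all 200 kb tiles or all 15 kb windows of the genome with a peak in either library. A window that is already widely covered in the library compared against cannot be called higher, and this is said where it applies.

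The starts of Ccl9, Ccl6 and Ccl3 are shown, as these 3 of the 5 genes had a promoter entry. Their H3K4me3 peaks, described next, were called in both empty vector libraries and in neither shWdr82 library. The 250 bases before each start are from RefSeq on GRCm38.p6, minus strand. They lie at chr11:83578637-83578886, chr11:83593088-83593337 and chr11:83649379-83649628 on that build, which is not the build of the peaks, so no peak border was placed on them. Capitals mark matches to 4 motifs searched on both strands.
Ccl9: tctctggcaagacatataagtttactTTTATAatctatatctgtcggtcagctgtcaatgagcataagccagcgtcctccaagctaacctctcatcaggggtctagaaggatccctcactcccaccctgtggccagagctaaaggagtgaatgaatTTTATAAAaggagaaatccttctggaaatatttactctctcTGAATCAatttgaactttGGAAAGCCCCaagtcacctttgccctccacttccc
Ccl6: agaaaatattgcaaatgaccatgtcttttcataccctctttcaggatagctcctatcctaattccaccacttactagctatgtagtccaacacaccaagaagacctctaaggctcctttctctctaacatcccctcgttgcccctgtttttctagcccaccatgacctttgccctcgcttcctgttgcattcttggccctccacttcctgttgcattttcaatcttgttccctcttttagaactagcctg
Ccl3: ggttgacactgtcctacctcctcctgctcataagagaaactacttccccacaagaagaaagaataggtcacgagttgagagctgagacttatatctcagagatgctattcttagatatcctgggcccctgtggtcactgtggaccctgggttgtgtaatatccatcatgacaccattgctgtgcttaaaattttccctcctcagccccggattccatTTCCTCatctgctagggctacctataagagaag
The motifs were the TATA box letters TATAAA, found in 12.4% of the 32851 promoter entries of that length, an NF-kB-like motif of GGG, any 3 bases and TTCC (4.65%), TGANTCA (AP-1-like, 6.75%) and GAGGAA (the core bound by PU.1, the macrophage lineage factor, 23.3%). Ccl9 held TATAAA beginning 92 bases before the start. On the other strand it held TATAAA 94 bases before, overlapping the first, and again 224 bases before. It also held 1 AP-1-like match 53 bases before the start and 1 NF-kB-like match 35 bases before it. Ccl3 held 1 GAGGAA on the other strand, 33 bases before the start. None of the 4 motifs was found with these letters in the Ccl6 entry, and other forms of these sites were not searched.

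H3K4me3 peaks were called at 4 of the 5 genes in untreated empty vector cells and at none of the 5 in untreated shWdr82 cells. In the empty vector list the Ccl9 peak spanned chr11:83389201-83392555 with a score of 1545, a number the authors' peak caller assigned, which starts at 50 and has its ceiling near 3100. The Ccl6 peak spanned chr11:83404122-83406712 (score 849), the Ccl3 peak chr11:83461101-83463082 (1388) and the Ccl4 peak chr11:83475853-83478198 (1477). Another, weak peak in the Ccl3 window scored 50. The whole 200 kb held 1 H3K4me3 peak in the shWdr82 untreated list, at chr11:83363552-83364014 between Ccl5 and Ccl9, also with a score of 50. The nearest shWdr82 peak lay 25.2 kb from the Ccl9 peak, 40.1 kb from the Ccl6 peak, 97.1 kb from the main Ccl3 peak and 88.6 kb from the Ccl4 peak.

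All 5 of these untreated empty vector peaks lacked an overlapping peak in the shWdr82 list, against 9.12% of the 18951 peaks of the empty vector list. Restricted to scores of 500 or more it was 4 of 4 in the cluster and 0.808% of 12754 in the genome, a score limit set after seeing the data. The windows of the 4 genes with an empty vector peak were all called lower, where 1.89% of 15 kb windows were. Their calls follow from the lack of any shWdr82 peak in these windows and are not a separate result. The covered length of the 200 kb was 10972 bp in empty vector cells and 463 bp in shWdr82 cells, a log2 ratio of -3.03. Of the 6527 tiles 1.24% were called lower, and 2, this one included, had a ratio at or below -3.03. The median tile ratio was -0.15. The shWdr82 untreated list is not short, with 20490 peaks, but its peaks cover 26.8 Mb against 32.1 Mb.

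With 4 h of LPS, an H3K4me3 peak was called at Ccl5 in both vectors, and at Ccl9, Ccl6 and Ccl3 in empty vector cells alone. At Ccl5 the empty vector LPS list had a peak at chr11:83341387-83344156 with a score of 3100, and the shWdr82 LPS list had one at chr11:83342149-83344056 with a score of 1351. Neither untreated list had an H3K4me3 peak in the Ccl5 window. At Ccl4 the scores were 2043 in the empty vector LPS list and 119 in the shWdr82 LPS list, where the peak spanned chr11:83476637-83478421. At Ccl9 the empty vector LPS peak scored 1355 and the nearest shWdr82 LPS peak was 45.1 kb away. At Ccl3 it scored 572 and the nearest was 13.8 kb away. At Ccl6 the empty vector LPS list held only a pair of weak peaks with scores of 55 and 81, where the untreated list had one of 849. Scores come from lists of unknown depth and describe each peak within its own list.

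Of the 8 empty vector LPS peaks in the cluster, 6 lacked an overlapping shWdr82 peak, against 6.79% of the empty vector LPS list. For scores of 500 or more it was 2 of 4, namely those of Ccl9 and Ccl3, against 0.709%. The gene windows of Ccl9, Ccl6 and Ccl3 were called lower, 3 of 5, against 1.12% of 15 kb windows. With a score of at least 100 neither LPS list has a peak at Ccl6, and that call is lost. The 200 kb had 4.4 kb covered in shWdr82 and 15.5 kb in empty vector cells, a log2 ratio of -1.61, where 0.687% of tiles were called lower. LPS against untreated gave 1 of 5 genes called higher in empty vector cells, namely Ccl5, against 0.617% of windows. In shWdr82 cells no gene had an untreated peak, so any gene with at least 1000 bp covered with LPS was called higher. These were Ccl5 and Ccl4, where 0.534% of windows were called higher, and no rate is read from them. The shWdr82 ratio of LPS to untreated over the 200 kb, 1.89, had 3 of 6670 tiles at or above it, this one included, and 0.405% of tiles were called higher. Whether the LPS ratio differs between vectors was not tested.

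**Figure D1:**
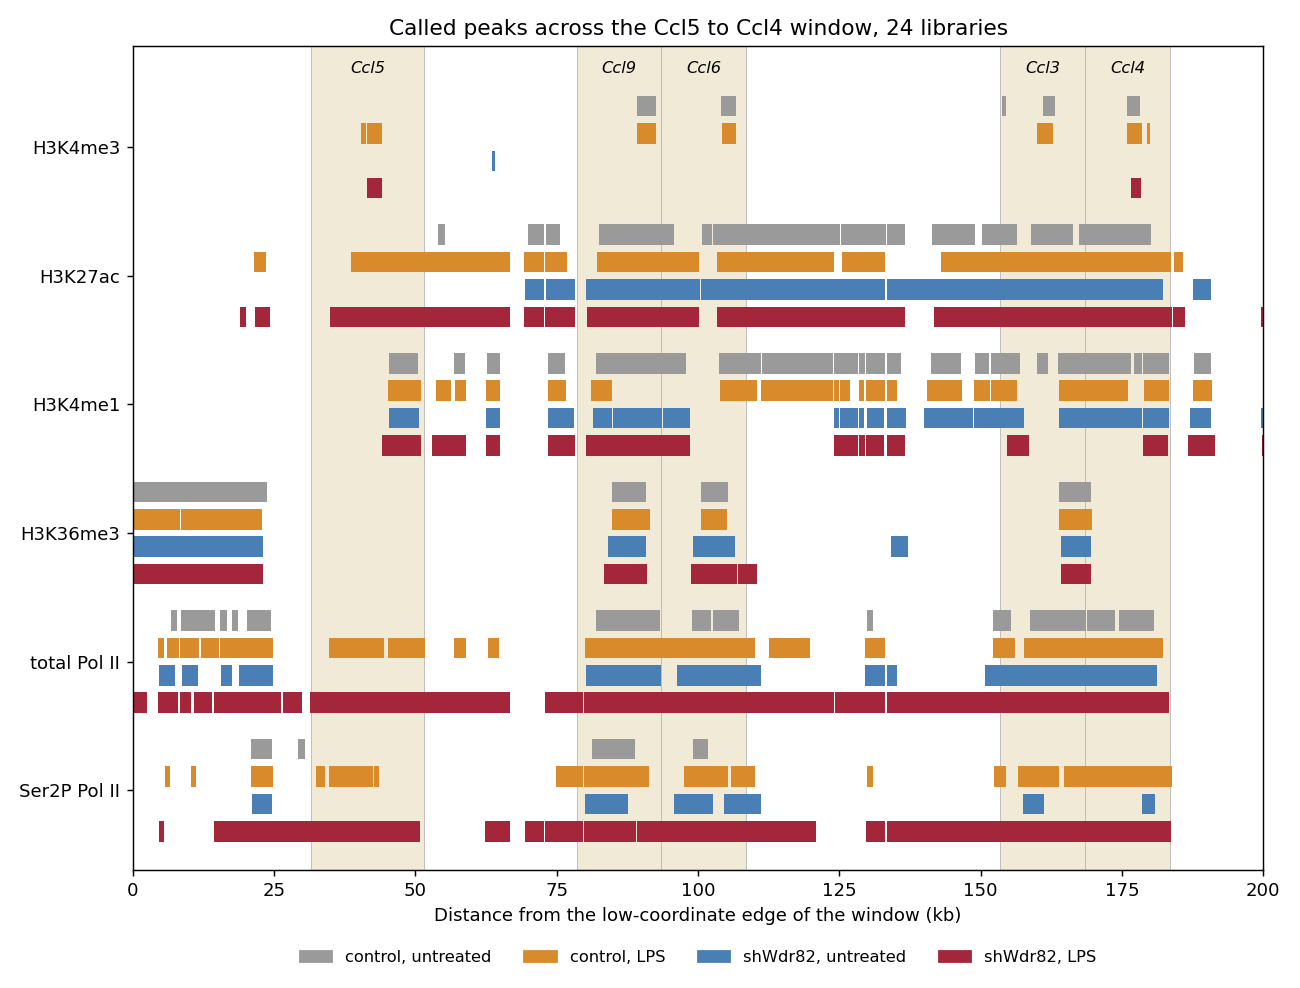
Called peaks (bars, clipped to the 200 kb window) in each of the 24 libraries, with distance in kb from the low-coordinate edge on the horizontal axis and the 4 libraries of each antibody stacked by vector and treatment; shaded columns are the gene windows. H3K4me3 bars are seen at Ccl9, Ccl6 and Ccl3 in both control rows and in neither shWdr82 row, and Pol II bars are longest in the shWdr82 LPS rows.

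The spans with H3K4me3 in empty vector cells lay inside peaks of other marks in shWdr82 cells. Over the Ccl9 span, chr11:83389163-83392569, H3K27ac and total Pol II peaks covered 100% in all 4 libraries of each. The H3K27ac peak there had a score of 3100 in every list, as did the total Pol II peak. H3K36me3 covered 49.7% of that span in both untreated libraries, 70.6% in scrambled LPS and 54.5% in shWdr82 LPS cells. Over the Ccl6 span, chr11:83404122-83406712, H3K27ac and total Pol II again covered 100% in all 8 libraries. The total Pol II peak there scored 1100 and 73 in scrambled and 840 and 3100 in shWdr82 cells, untreated and with LPS. Over the spans of Ccl3, chr11:83460031-83463082, and of Ccl4, chr11:83475853-83479979, the cover of both was likewise 100% in all 8 libraries. The untreated shWdr82 lists had H3K27ac and total Pol II peaks at all 4 genes without an H3K4me3 peak at any of them. At Ccl5, chr11:83340411-83344156, H3K27ac and total Pol II covered 0% in untreated and 100% in LPS libraries of both vectors.

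H3K4me1 over those spans differed between vectors in no common direction. With LPS its cover was smaller than untreated at Ccl4 in both vectors and at Ccl9 and Ccl3 in scrambled cells. At the Ccl9 span it covered 100% in untreated scrambled cells and 100% in both shWdr82 libraries, but no peak was called in the scrambled LPS library. The overlapping peak scored 191 in scrambled untreated cells, and 1391 and 1373 in shWdr82 untreated and LPS cells. At the Ccl6 span it covered 100% in both scrambled libraries, with scores of 1737 and 1668, and 0% in both shWdr82 libraries. The gap in shWdr82 cells went on beyond Ccl6: the stretches chr11:83403754-83411061 and chr11:83411204-83423945 were held by both scrambled libraries and by neither shWdr82 library. The latter ended 56 bp from a shWdr82 H3K4me1 peak and the former lay 5231 bp from one. At Ccl3 the cover was 59.1% in scrambled untreated cells (score 96) and 0% in the other 3 libraries. At Ccl4 it was 81.1% untreated and 30.8% with LPS in scrambled cells, and 97.9% and 31.8% in shWdr82 cells.

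In the gene windows, H3K4me1 calls were few. With LPS against untreated, Ccl9 was called lower in scrambled cells (11.5 kb untreated, 3.7 kb with LPS), 1 of 5 genes against 3.74% of windows. In shWdr82 cells it was Ccl4 (14.7 kb and 4.5 kb), 1 of 5 against 4.85%. With the hairpin against the control in LPS cells, Ccl9 was called higher (13.3 kb and 3.7 kb; 5.45% of windows) and Ccl4 lower (4.5 kb and 11.9 kb; 7.85%). No gene was called in untreated cells, where 8.63% of windows were lower and 5.84% higher, and only 1 gene, Ccl5, could have been called higher. At Ccl5, the stretch chr11:83345375-83350496, on the high-coordinate side of its H3K4me3 span, lay inside an H3K4me1 peak in all 4 libraries, with peak scores of 928 and 1291 in scrambled and 637 and 1675 in shWdr82 cells, untreated and with LPS.

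**Figure D2:**
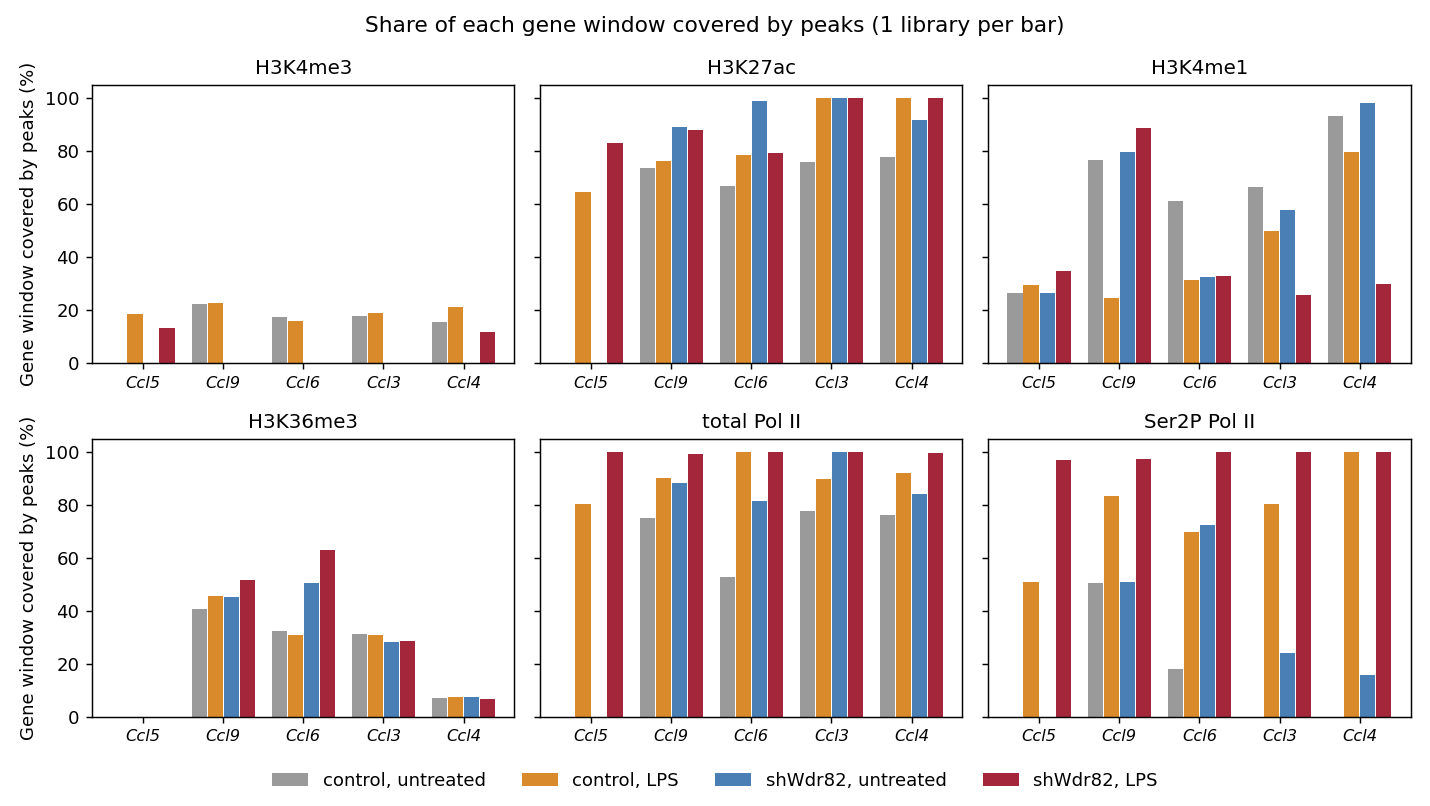
Percent of each gene window covered by peaks, by antibody (panels) and gene, with 1 bar per library and no error bars because each group has 1 library. At Ccl5 no H3K4me3, H3K27ac, total Pol II or Ser2P bar is present in untreated cells, and for H3K4me3 no shWdr82 bar is present at Ccl9, Ccl6 or Ccl3.

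Ccl5 was the gene of the cluster that had no H3K27ac, total Pol II or Ser2P peak in its window in untreated cells of either vector. H3K27ac covered 12.9 kb of its 20 kb window in empty vector and 16.6 kb in shWdr82 cells with LPS. The peak over it ran for 28.0 kb in the former, chr11:83338612-83366658, and for 28.3 kb in the latter, chr11:83338470-83366743. Total Pol II covered 16.0 kb in scrambled and 20.0 kb in shWdr82 cells with LPS, and Ser2P 10.2 kb and 19.4 kb. So the 4 LPS libraries of these Pol II antibodies all had a ceiling score of 3100 at Ccl5, and the 4 untreated libraries had no peak in the window. Outside the window, untreated empty vector cells had an H3K27ac peak at chr11:83353991-83355307 (score 76), inside the stretch of the 28.0 kb LPS peak. Untreated scrambled cells had a Ser2P peak at chr11:83329286-83330441 (score 84), on the low-coordinate side of the window. Ccl5 was called higher with LPS for H3K27ac in both vectors, where 20.6% of windows in empty vector and 17.2% in shWdr82 cells were called higher. It was also called higher for total Pol II, with 13.2% of windows in scrambled and 18.4% in shWdr82 cells. The other 4 genes were covered too widely in untreated cells to be called higher for either, so these calls do not set Ccl5 apart from them. Ccl5 is the member whose window had no H3K36me3 peak in any of the 4 libraries. Over the H3K4me3 spans of Ccl3 and Ccl4, H3K36me3 covered 0% in all 4 libraries as well. The H3K36me3 peak in their windows lay between these spans.

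With 45 min of LPS, Ser2P Pol II peaks covered 75.2% of the gene windows in scrambled and 98.7% in shWdr82 cells, against 12.8% and 30.6% untreated. Ccl3 and Ccl4 had no Ser2P peak in untreated scrambled cells, and 80.3% and 100% of their windows were covered with LPS. In untreated shWdr82 cells both had a peak, covering 3.6 kb at Ccl3 (score 509) and 2.4 kb at Ccl4 (764). With LPS and the hairpin both windows were covered whole. Ccl6 had 2.7 kb in untreated scrambled cells (score 93) and 10.9 kb in untreated shWdr82 cells. The latter came from 2 peaks with scores of 913 and 51, and only the weaker one reached the H3K4me3 span of Ccl6. With LPS, Ccl6 had 10.4 kb in scrambled cells and the whole window in shWdr82 cells. At Ccl9 untreated cells of both vectors already had a Ser2P peak at 3100, over 7.5 kb in scrambled and 7.6 kb in shWdr82 cells, and LPS cells had 12.5 kb and 14.6 kb. The untreated libraries thus stood apart at Ccl6, Ccl3 and Ccl4 and were alike in covered length at Ccl9, while the Ccl5 window had no peak in either.

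LPS against untreated gave 4 of 5 genes called higher for Ser2P in scrambled cells, all but Ccl9, against 13.1% of windows. In shWdr82 cells it was 3 of 5 (Ccl5, Ccl3 and Ccl4) against 24.6%. The genes not called, Ccl9 in both vectors and Ccl6 in shWdr82 cells, were covered too widely in untreated cells to be called. Counting only scores of 100 or more, Ccl6 in shWdr82 cells had a ratio of 1.02 in place of 0.43 and was called too. The covered length of the 200 kb was 15.2 kb untreated and 73.7 kb with LPS in scrambled cells, and 30.7 kb and 146.3 kb in shWdr82 cells. The log2 ratios were 2.21 and 2.22, while 9.32% and 17.3% of tiles were called higher and the median tile ratio was below 0 in both, at -0.25 and -0.24. For untreated shWdr82 against scrambled cells, 3 of the 4 genes with a peak were called higher (Ccl6, Ccl3 and Ccl4) and none lower. Of all windows 7.96% were higher and 11.2% lower. Ccl9 could reach at most 1.87-fold and so could not be called higher, while Ccl3 and Ccl4 had a peak in shWdr82 cells alone. The Ser2P lists hold 15670 peaks in untreated scrambled and 16744 in untreated shWdr82 cells, covering 46.0 Mb and 43.0 Mb. With LPS the scrambled windows were 50.8 to 100% covered, so that none of the 5 genes could be called higher in shWdr82 cells, and no count is given. At Ccl5 the ratio was 0.87, and 1.21 counting only scores of 100 or more.

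**Figure D3:**
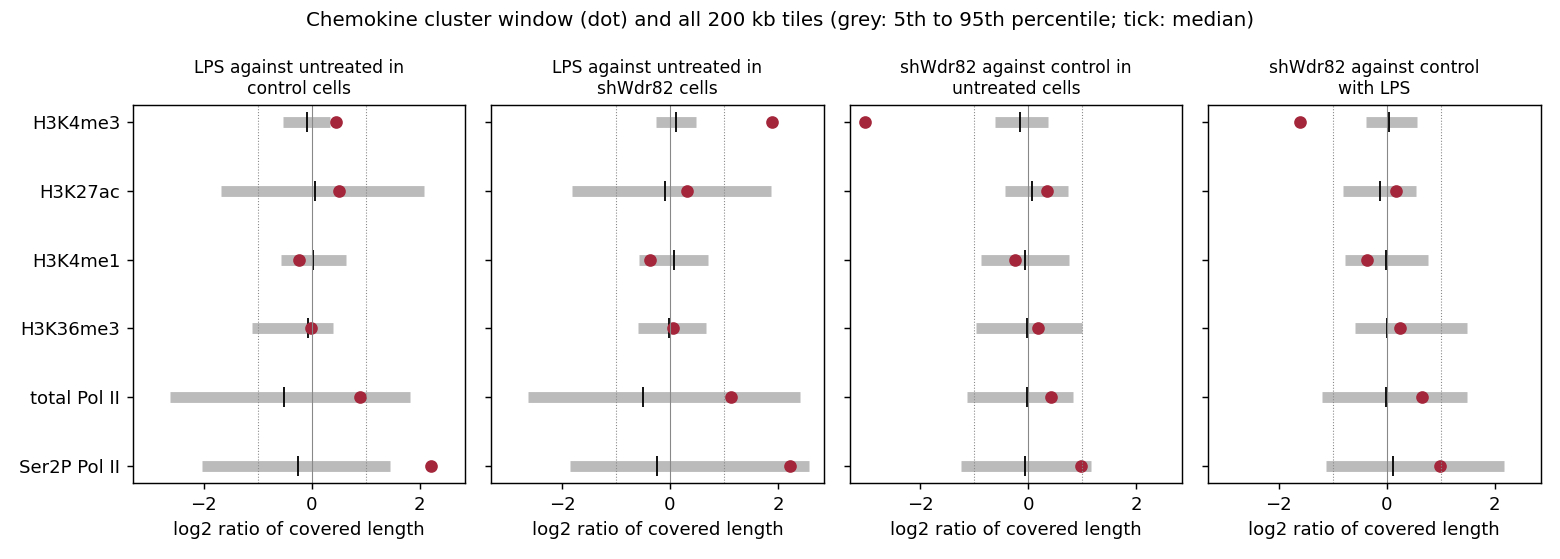
Log2 ratio of covered length (1000 bp added to each) of the 200 kb cluster window (dots) for each antibody in the 4 contrasts, beside the 5th to 95th percentile (grey bars) and median (ticks) of all 200 kb tiles of the genome; dotted lines mark 2-fold. The H3K4me3 dots at -3.03 and -1.61 for shWdr82 against control lie outside the grey range, whereas the Ser2P dots of the same contrasts, 0.97 and 0.98, lie within it.

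Outside the gene windows, Pol II was called over longer stretches in shWdr82 LPS cells. Of the 120 kb outside, Ser2P peaks covered 13.5 kb in scrambled LPS and 67.4 kb in shWdr82 LPS cells, against 4.9 kb and 6.2 kb untreated. Total Pol II covered 37.1 kb and 92.0 kb with LPS, and 15.5 kb and 24.2 kb untreated. A single Ser2P peak of 50.2 kb, chr11:83433445-83483633, ran across Ccl3 and Ccl4 in shWdr82 LPS cells and was the 11th widest of 14870 in its list. A total Pol II peak of 50.0 kb, chr11:83433417-83483404, lay over the same stretch in the shWdr82 LPS list, the 63rd widest of 22307. In scrambled LPS cells the widest Ser2P peak of the cluster was 19.1 kb, chr11:83464739-83483828, the 124th widest of 14420, and the widest total Pol II peak was 24.7 kb, chr11:83457621-83482293. Of the Ser2P length called with LPS, 71.6 kb was shared by both vectors, 74.7 kb was in shWdr82 cells alone and 2.1 kb in scrambled cells alone.

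Longer Ser2P peaks were also a feature of that list as a whole. The shWdr82 LPS list covers 60.6 Mb with 14870 peaks and the scrambled LPS list 44.7 Mb with 14420. The cluster's log2 ratio of 0.98 for Ser2P in LPS cells was just under 2-fold, and 15.8% of tiles were called higher. Counting only peaks that score 100 or more, the ratio was 1.12, past 2-fold, and the untreated ratio was 1.03. For total Pol II the ratio between vectors with LPS was 0.65, where the length already covered in scrambled cells allowed at most 1.83-fold. LPS against untreated gave 0.90 in scrambled cells, with 10.2% of tiles called higher, and 1.14, called higher, in shWdr82 cells, with 14.8%. The between-vector Ser2P and total Pol II ratios of the cluster thus lay within the 5th to 95th percentile of tiles. The untreated Ser2P ratio of 0.97, beside 7.55% of tiles called higher, was about as large, where the genome's covered length was smaller in shWdr82 cells.

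**Figure D4:**
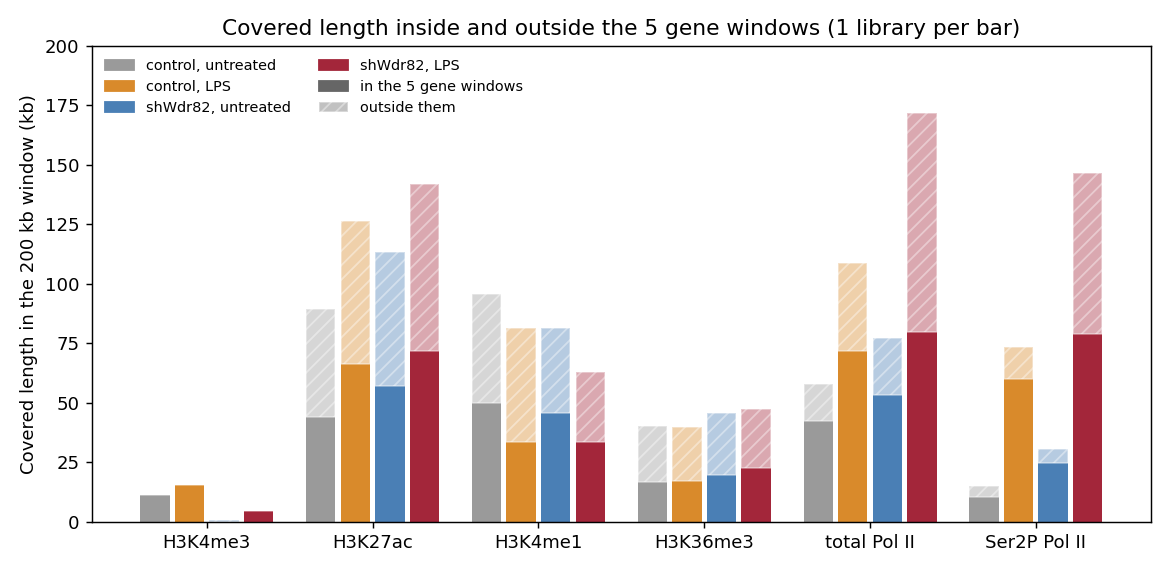
Covered length in kb of the 200 kb window for each library, split into the 80 kb of gene windows (solid) and the 120 kb outside them (hatched), 1 library per bar. Ser2P outside the gene windows stands at 67.4 kb in shWdr82 LPS cells and at 13.5 kb or less in the other 3 libraries.

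Outside the gene windows, 8 stretches of at least 500 bp lay inside H3K4me1 peaks of all 4 libraries, 7 of them between the genes and 1, chr11:83487746-83490698, past Ccl4, and 5 more lay in gene windows. The stretch past Ccl4 had no Pol II peak in any library. Total Pol II peaks overlapped 1 of the 8 in untreated scrambled and 2 in untreated shWdr82 cells, and 2 in scrambled LPS and 7 in shWdr82 LPS cells. Of the 5 stretches in gene windows, total Pol II peaks overlapped 3 in each untreated library and 5 in each LPS library. Over all 46076 shared stretches of the genome, near genes or not, the shares were 32.6% and 30.3% untreated. With LPS they were 25.4% and 26.7%. The genome's shares here and below are thus not limited to stretches away from genes, as the 8 are. Ser2P peaks overlapped 0 of the 8 in either untreated library, 2 in scrambled LPS and 4 in shWdr82 LPS cells, where the genome's shares were 7.43% and 6.85% untreated and 7.43% and 9.86% with LPS. These 8 stretches share a few wide Pol II peaks and are not independent of each other. H3K27ac overlapped 6 of the 8 in untreated empty vector, 7 in untreated shWdr82, 5 in empty vector LPS and 7 in shWdr82 LPS cells, against 57.1%, 58.6%, 49% and 47.9% of the genome's stretches.

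The stretch chr11:83429811-83432871, between Ccl6 and Ccl3, had H3K4me1, H3K27ac and total Pol II peaks in all 4 libraries of each. Its H3K27ac peak had a score of 3100 in all 4. Total Pol II there scored 60 in untreated scrambled, 194 in scrambled LPS, 742 in untreated shWdr82 and 1256 in shWdr82 LPS cells. Ser2P was called there with LPS in both vectors, over 37.9% of the stretch in scrambled (score 53) and 100% in shWdr82 cells (226), and in neither untreated library. The stretch chr11:83362658-83364912, between Ccl5 and Ccl9, had H3K4me1 in all 4 libraries but H3K27ac and total Pol II in the LPS libraries alone, in both vectors. Ser2P was called there in shWdr82 LPS cells alone. At chr11:83373505-83376489, just below the Ccl9 window, total Pol II was called in shWdr82 LPS cells alone, and Ser2P with LPS in both vectors, over 56% of the stretch in scrambled and 100% in shWdr82 cells.

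H3K27ac was wide over the cluster in all conditions. It covered 89.1 kb of the 200 kb in untreated empty vector, 113.3 kb in untreated shWdr82, 126.3 kb in empty vector LPS and 142.0 kb in shWdr82 LPS cells. None of the 4 ratios reached 2-fold, the largest being 0.50 for LPS in empty vector cells, where 18.1% of tiles were called higher. For shWdr82 against control the ratio was 0.34 untreated, where 2.6% of tiles were called higher. It was 0.17 with LPS, where at most 1.58-fold could be reached, as LPS against untreated in shWdr82 cells, 0.32, could reach at most 1.76-fold. In untreated shWdr82 cells 1 H3K27ac peak of 48.9 kb, chr11:83433376-83482270, spanned Ccl3 and Ccl4 and was the 6th widest of 31677. Untreated empty vector cells had separate peaks of 3.3, 7.6, 6.2, 7.4 and 12.7 kb over that stretch, so the width depends on gaps between called peaks. In empty vector LPS cells the peak there was 40.8 kb, chr11:83443017-83483773, the 28th widest of 28986, and in shWdr82 LPS cells 42.2 kb, chr11:83441679-83483853, the 26th of 28462.

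H3K36me3 was called over Ccl9, over Ccl6, and between the H3K4me3 spans of Ccl3 and Ccl4 in all 4 libraries. It covered 40.4 kb of the 200 kb in scrambled untreated, 39998 bp in scrambled LPS, 45.7 kb in shWdr82 untreated and 47.4 kb in shWdr82 LPS cells, with all 4 ratios within 2-fold. At Ccl6 it covered 4.9 kb and 4.6 kb of the window in scrambled and 7.5 kb and 9.5 kb in shWdr82 cells, untreated and with LPS, and scored 1196, 1013, 3100 and 3100. Over the Ccl6 H3K4me3 span its cover was 47.1% and 42.1% in scrambled and 94.8% and 100% in shWdr82 cells. Between Ccl3 and Ccl4 the peak scored 547 and 305 in scrambled and 60 and 76 in shWdr82 cells. With a score of at least 100 that shWdr82 peak drops out, and the ratio at Ccl3 becomes -2.50 in both treatments. The region at the low-coordinate edge, chr11:83294239-83323679, was held by H3K36me3 in all 4 libraries. In RefSeq order on GRCm38, Taf15 and Heatr9 come before Ccl5 on that side, and no gene was assigned to the region here.

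The 5 genes thus fell into different patterns. In its window, Ccl5 had H3K4me3, H3K27ac and both Pol II signals with LPS alone, in both vectors. The H3K27ac and Ser2P peaks of untreated control cells near Ccl5 lay outside that window. Ccl9 and Ccl6 had H3K27ac, total Pol II, Ser2P and H3K36me3 in untreated cells of both vectors, with H3K4me3 in empty vector cells alone. Ccl3 and Ccl4 had H3K27ac and total Pol II in every library, and Ser2P in every library but the untreated scrambled one. Ccl4 is the gene among these 4 with an H3K4me3 peak in a shWdr82 library, that with LPS. By merged peak regions, 0 of 9 H3K4me3 regions of the cluster were held in all 4 libraries, against 71.4% of 21624 in the genome, while it was 5 of 12 for H3K27ac (44%), 11 of 21 for H3K4me1 (52.8%), 4 of 6 for H3K36me3 (61.6%), 5 of 9 for total Pol II (28.8%) and 2 of 11 for Ser2P (16.2%).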

How the data were processed

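ChIP-seq peak lists of 24 libraries were analysed, 1 per group. Per the submitters' processing notes the tools include Bowtie 0.12.7 and MACS 1.4, and the build is mm9. The score of each peak and its borders are deposited values of the authors, called library by library. How deeply each library was sequenced, and which input it was called against, is unknown here, and no depth correction, interval or floor was computed. A list can be longer or wider through depth or enrichment, and a region absent from a list may lie just under the threshold.

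Groups were taken from the sample titles, and each antibody was compared within its own 4 libraries. Covered lengths came from the union of a library's peaks, with 1000 bp added to each length for log2 ratios. Peaks were merged between libraries at 1 bp of overlap. Alternatives were a score of at least 100, equal numbers of top-scoring peaks in each library, peaks joined across gaps of up to 1000 bp, gene windows of 5 kb to each side, and a region counted as held only if 25% covered. The covered-length code was tested on simulated peaks. Python 3.11.15 with numpy 2.4.6 and pandas 2.3.3 was used.

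Named items are the 5 genes and the regions of the window. Gene positions on mm9 come from the member rule, so other genes, receptors and cell type markers were not analysed here. The members, windows and alternatives were chosen with earlier results of these data known. Nothing in the sources says which libraries share a culture.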

Additional observations from a re-analysis of the deposited data

How the results depend on the processing

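No replicate could be left out and no paired analysis was possible because each group has 1 library and the labels give no replicate numbers. The 24 log2 ratios of the 200 kb window moved by less than 1.5 times in all 72 alternatives run on them, but 3 crossed 2-fold. With a score of at least 100, the Ser2P ratio of shWdr82 to scrambled cells became 1.03 untreated and 1.12 with LPS. With equal numbers of top-scoring peaks, total Pol II for LPS in scrambled cells became 1.20. The number of merged regions held in all 4 libraries became 2 for H3K27ac and 2 for total Pol II when peaks were joined across gaps, since neighbouring regions then fuse. It became 1 for Ser2P when a library had to cover 25% of a region. The count of empty vector LPS peaks in the window without a shWdr82 H3K4me3 peak became 2 with a score of at least 500, a limit added after seeing the data. Of the 480 values for single genes, 459 moved by less than 1.5 times, 21 moved by more and none of those called reversed, while 15 crossed 2-fold. Among the latter, with a score of at least 100, H3K36me3 at Ccl4 had a ratio of -1.05 untreated and -1.08 with LPS for shWdr82 against scrambled cells, total Pol II at Ccl6 with LPS had 1.44, and H3K4me3 at Ccl6 for LPS in empty vector cells had -1.84. With that score limit Ser2P ratios also crossed 2-fold at Ccl5 for shWdr82 against scrambled cells with LPS (1.21) and at Ccl6 for LPS in shWdr82 cells (1.02, also with equal numbers of top-scoring peaks). The cause of these shifts beyond the loss of weak peaks was not tested. Unknown depth limits every comparison of length and score between lists.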

Other observations

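Peak borders recurred at the same place in lists of different antibodies. Within the window, 1 stretch, chr11:83433124-83433410 on mm9 between Ccl6 and Ccl3, lay at each base in a gap of at most 1000 bp between neighbouring peaks in at least 6 of the 24 lists, and in 10 at most. Those lists came from 4 antibodies, namely H3K27ac, H3K4me1, total Pol II and Ser2P. The 50.2 kb Ser2P peak and the 50.0 kb total Pol II peak of shWdr82 LPS cells begin at chr11:83433445 and chr11:83433417, just after it, and the 48.9 kb H3K27ac peak of untreated shWdr82 cells begins within it, at chr11:83433376. The number of such short gaps in the window ran from 8 to 11 in the H3K4me1 lists and from 0 to 5 in the Ser2P lists. What sets this border was not tested.

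The 12.7 kb stretch chr11:83411204-83423945, held by H3K4me1 in both scrambled libraries alone, lies in the total Pol II peak of 44.2 kb, chr11:83379829-83424046, of shWdr82 LPS cells. A total Pol II peak of scrambled LPS cells, 7.2 kb with a score of 68, chr11:83412514-83419748, lies within the same stretch.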
